A study of Arabidopsis thaliana with 12 samples.

Results

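In leaves of an Arabidopsis thaliana mutant line labelled abf1/2/3/4, 45 gene loci still stood at least 4-fold higher after a spray of abscisic acid (ABA) than after the vehicle, and the same 45 stood at least 4-fold higher in wild-type leaves. They were chosen from 36796 loci by a rule on leaf libraries alone. Levels are given as CPM, the count of a locus per 1000000 counts in its library, and the fold R was the mean CPM of 2 replicates plus 1 with ABA, divided by the same sum at control. A member had an R of at least 4 in both genotypes and averaged at least 5 CPM in wild-type leaves with ABA. They are 8.18% of the 550 loci that met the rule in wild-type leaves. Those 550 were 3.91% of the 14077 loci averaging 5 CPM there with ABA, and 48 of 14562 such loci (0.330%) had an R of at least 4 in the mutant, shares that the rule itself used. The other 505 of the 550 had an R under 4 in the mutant and are called the comparison loci. All values from leaves below were used by the rule or share its libraries, so they are descriptions without a test. The response of guard cell preparations was not used and was tested.

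The study measured messenger RNA in 12 libraries from Col-0 plants. The plants were 5 to 6 weeks old, were kept at 22 °C under 12 h light, and were sprayed 4 h before RNA was taken. The guard cell preparations came from wild-type plants given 50 µM ABA and from wild-type plants given the ethanol vehicle as control. The mutant leaves were abf1/2/3/4 leaves with 50 µM ABA and abf1/2/3/4 leaves with vehicle, and the wild-type leaves were Col-0 leaves with 50 µM ABA and Col-0 leaves with vehicle. Each of these 6 groups has 2 biological replicates. For guard cells, RNA was extracted from fragments of epidermis with another kit than the one used for whole leaves. Library totals ran from 25294558 to 47116819 counts.

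ABA is the hormone that plants make under drought and salt stress. It binds PYR/PYL receptors, which then hold back clade A PP2C phosphatases, and the SnRK2 kinases released from those phosphatases activate transcription factors. ABF1 to ABF4 are bZIP factors of this kind that bind the ABA-responsive element, a promoter sequence with the core ACGTG. Other factors, among them DREB/CBF proteins on the CCGAC core and MYC and NAC proteins, are also known to act on stress genes. In guard cells, the paired cells that form the stomatal pore, ABA leads to closure.

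The working name of this set, leaf genes induced by ABA without ABFs, holds for the mutant label but not for an absence of ABF reads. ABF1 averaged 44.7 CPM in abf1/2/3/4 leaves with ABA and 34.7 CPM at control, against 112.5 and 56.8 CPM in the same order in wild-type leaves. ABF2 averaged 10.96 and 8.74 CPM in the mutant, against 123.9 and 17.4 CPM in wild-type leaves. ABF3 averaged 12.5 and 2.73 CPM in the mutant, against 473.3 and 17.4 CPM in wild-type leaves. ABF4 averaged 2.43 and 2.49 CPM in the mutant, against 74.8 and 29.7 CPM in wild-type leaves. All 4 were lower in the mutant under both treatments, and ABF3 there was still higher with ABA, with an R of 3.63, which reached 4 with a pseudocount of 0.5. Whether these reads come from transcripts that can make a protein was not tested.

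The abf1/2/3/4 control libraries stood apart from each other in these genes, which bears on the choice of members. Of the 45 members, 42 were higher in replicate 1 than in replicate 2 (56.2% of all 22341 tested loci), and 13 were over 2-fold higher there on the CPM + 1 scale that R uses (0.327% of all tested loci), while none was over 2-fold lower on it (1.17%). Differences between replicates below are also on that scale, which holds back loci near 1 CPM. VSP2, a storage protein gene known as a jasmonate marker, had 103.6 CPM in replicate 1 and 20.6 CPM in replicate 2. ARGAH2, an arginase gene, had 549.4 and 174.1 CPM, and COR15A, which encodes a cold-regulated chloroplast protein, had 1032 and 489.2 CPM. The others past 2-fold were VSP1, PAP1, AT4G11320, CORI3, RD20, NATA1, CSLA10, KIN1, AT3G27250 and AT4G17470. On the same CPM + 1 scale, 2 members differed over 2-fold between replicates in guard cell control preparations, and none did in the other 4 groups. Of 10 listed jasmonate genes that are not members, 9 were also higher in replicate 1, with summed levels of 4061 and 2285 CPM, and all 7 listed wounding and touch genes were lower in it, with sums of 538.1 and 993.8 CPM. The part of this difference in the results was not tested.

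Leaving out replicate 1 of that group, the rule gave 76 loci, which included all 45. Leaving out replicate 2 it gave 35, and COR47, CSLA10, AT1G07477, PAP1, ABCG1, COR15A, ARGAH2, AT4G17470, CORI3 and RD29A dropped below an R of 4. Among members that stayed, the mutant R was 29.2 without replicate 1 and 11.9 without replicate 2 for RD20, 19.1 and 5.76 for AT4G11320, 16.9 and 7.10 for NATA1, and 13.0 and 6.00 for KIN1. Leaving out replicate 2 of the abf1/2/3/4 leaves with ABA, COR47, ABCG1, ARGAH2, CORI3, RD26 and RD29A fell below an R of 4. Leaving out replicate 1 of that group, AT1G07477 did. Other loci joined in both cases. The margin of the rule was narrow in the mutant. AT1G07477 at 4.03, ARGAH2 at 4.08 and ABCG1 at 4.11 were the members nearest to the limit on R in the mutant, and AT4G30460, RCI2B and FAR1, each at 3.96, lay just outside. In wild-type leaves AT4G11320 at 4.66, AT4G17470 at 5.17 and ARGAH2 at 6.19 lay nearest inside, while CYP81D11 at 3.04 and FLR1 at 2.59 met the other limits but not this one. On the limit of 5 CPM, ILL5 at 7.49 CPM, ABCG27 at 24.6 CPM and CYP707A4 at 27.2 CPM were nearest inside, and CSLA01 at 3.80 CPM was the locus kept out.

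**Figure D1:**
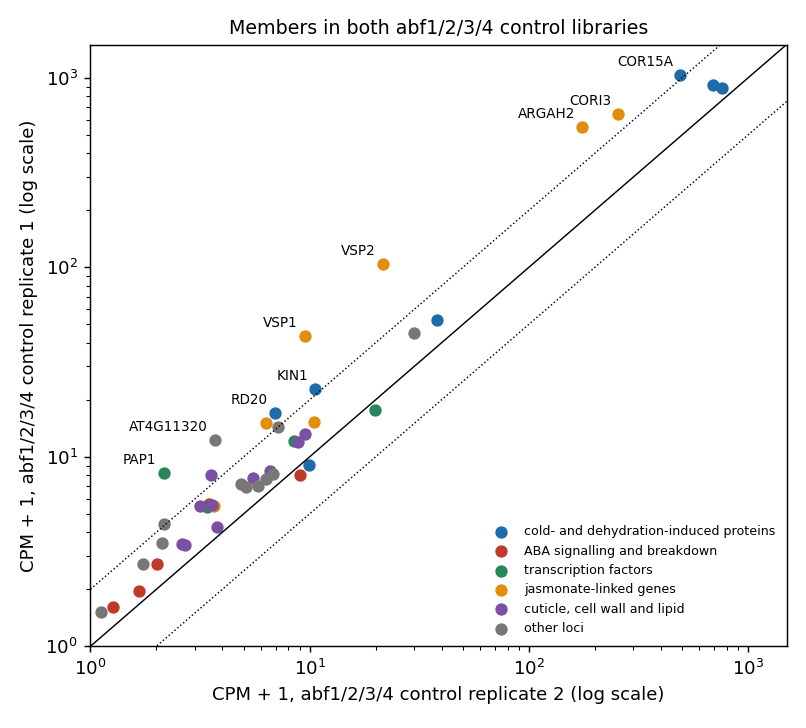
Level of each of the 45 members in the 2 abf1/2/3/4 control libraries, as CPM + 1 on log scales, with replicate 2 across and replicate 1 up. The solid line marks equal levels and the dotted lines 2-fold differences; 13 members lie above the upper dotted line and none below the lower one.

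Members differed in how much of the wild-type fold was left in the mutant. The median R was 5.62 in abf1/2/3/4 leaves (4.03 to 16.9) and 26.5 in wild-type leaves (4.66 to 257). The ratio of the mutant R to the wild-type R had a median of 0.23 over the members, close to 0.246 over the comparison loci. It was under 0.5 in 35 members and under 0.1 in 10. It was above 1 in 4 members, AT4G11320 at 1.90, ABCG27 at 1.62, ILL5 at 1.13 and VSP1 at 1.09, and in none of the 505 comparison loci, whose R in the mutant was kept under 4 by the rule. Without abf1/2/3/4 control replicate 2 the ratio was above 1 in ABCG27 and AT4G11320 alone among the members, and without replicate 1 in 6, with ARGAH2 and AT4G17470 added. With ABA, both abf1/2/3/4 libraries lay below both wild-type libraries in 38 members (29.7% of all tested loci) and above both in 1 (49.7%). At control, both abf1/2/3/4 libraries lay above both wild-type libraries in 16 members (41.6%) and below both in 3 (20.6%).

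**Figure D2:**
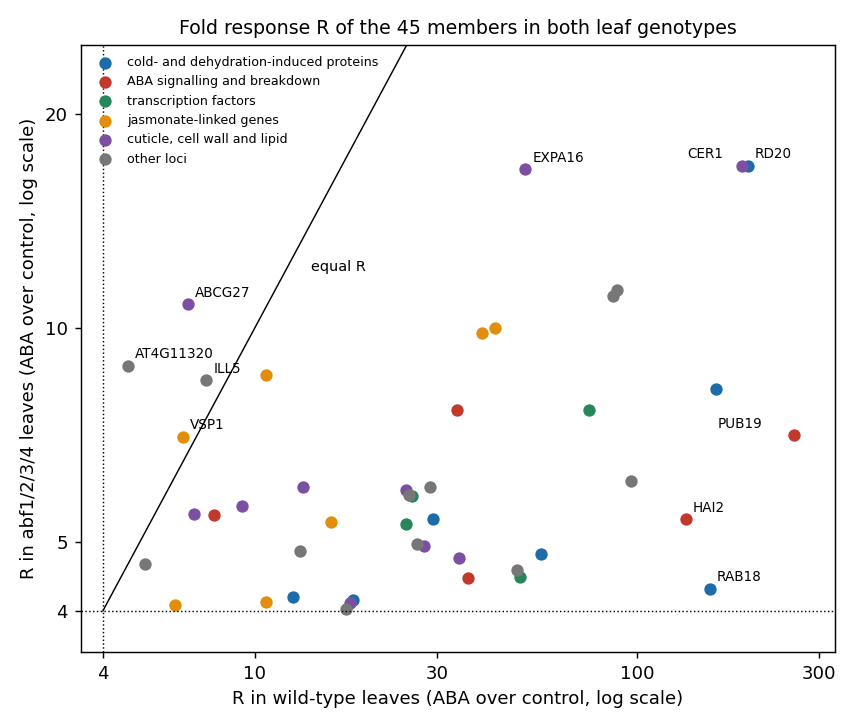
The fold R (mean CPM + 1 with ABA over the same at control) of each member in wild-type leaves (across) and abf1/2/3/4 leaves (up), on log scales. Dotted lines mark the rule's limit of 4 and the solid line equal R; 4 members lie above the line of equal R, and PUB19, HAI2 and RAB18 lie far to the right of it.

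A sequence description of the 300 bases before each annotated gene start set the members beside the rest of the genome, since ABF factors are known to bind ACGTG. Windows were read from RefSeq assembly TAIR10.1 for the 43 protein-coding members, 482 coding comparison loci and all 20335 tested coding loci, and both strands were searched. ACGTG, the core of the ABA-responsive element, was present in 29 of 43 members (67.4%), in 50.2% of the comparison loci and in 26.2% of all coding loci. The longer ACGTGGC was in 7 members (16.3%), against 11.4% and 4.37% in the same order. The G-box CACGTG, which contains ACGTG, was in 11 members (25.6%), against 22.4% and 8.15%. CCGAC, the core bound by DREB/CBF factors, was in 13 members (30.2%), against 22.4% and 15.0%. CAATNATTG, a site of HD-Zip class I factors, was in no member window, against 1.66% and 1.18%. A match is a description of letters and not a bound site, and a window without a match says nothing of sites elsewhere. The following 5 windows, chosen after their contents were seen, run 5′ to 3′ on the gene's strand toward its start, and capitals mark these motifs on either strand. COR15A (chr2:17712331-17712630, minus strand) and PUB19 (chr1:22197966-22198265, plus strand) hold both cores, RD29A (LTI78 in RefSeq, chr5:21240417-21240716, plus strand) holds 3 CCGAC and no ACGTG, and VSP2 (chr5:8502225-8502524, minus strand) and AT2G04570 (chr2:1594288-1594587, plus strand) hold none of the motifs.
COR15A: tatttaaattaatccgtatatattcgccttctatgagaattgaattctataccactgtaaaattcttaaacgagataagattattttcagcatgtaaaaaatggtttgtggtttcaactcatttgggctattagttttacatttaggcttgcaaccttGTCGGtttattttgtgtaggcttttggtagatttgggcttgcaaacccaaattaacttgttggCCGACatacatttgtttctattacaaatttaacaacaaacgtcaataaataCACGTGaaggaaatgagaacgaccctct
RD29A: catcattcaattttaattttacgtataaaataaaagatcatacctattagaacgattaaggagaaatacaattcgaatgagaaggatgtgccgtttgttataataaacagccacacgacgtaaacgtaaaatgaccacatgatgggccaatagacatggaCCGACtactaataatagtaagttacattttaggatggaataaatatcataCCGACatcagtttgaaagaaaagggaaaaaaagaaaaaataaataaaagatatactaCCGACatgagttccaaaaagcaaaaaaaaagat
PUB19: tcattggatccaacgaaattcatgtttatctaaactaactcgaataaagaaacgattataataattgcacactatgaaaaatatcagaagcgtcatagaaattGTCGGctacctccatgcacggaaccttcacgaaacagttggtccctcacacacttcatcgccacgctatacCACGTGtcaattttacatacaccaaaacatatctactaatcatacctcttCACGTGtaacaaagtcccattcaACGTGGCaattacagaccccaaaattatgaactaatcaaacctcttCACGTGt
VSP2: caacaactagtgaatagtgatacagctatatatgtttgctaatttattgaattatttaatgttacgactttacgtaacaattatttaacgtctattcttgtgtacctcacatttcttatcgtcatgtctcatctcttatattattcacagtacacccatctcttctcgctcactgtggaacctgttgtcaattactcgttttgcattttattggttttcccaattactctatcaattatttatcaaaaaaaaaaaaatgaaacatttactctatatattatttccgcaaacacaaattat
AT2G04570: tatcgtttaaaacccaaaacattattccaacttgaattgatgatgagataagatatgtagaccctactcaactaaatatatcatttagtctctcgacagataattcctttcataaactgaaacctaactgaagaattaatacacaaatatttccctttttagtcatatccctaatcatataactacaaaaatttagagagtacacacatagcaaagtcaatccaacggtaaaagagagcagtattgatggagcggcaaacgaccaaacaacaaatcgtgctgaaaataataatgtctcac

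The PUB19 window held 7 ACGTG matches counted on both strands, including those in its 3 G-boxes, each of which reads as ACGTG on both strands, and its R was 7.06 in the mutant and 257 in wild-type leaves. The COR15A window held 1 G-box and 2 CCGAC, and its R was 5.39 in the mutant and 29.3 in wild-type leaves. RD29A had an R of 4.15 in the mutant and 18.1 in wild-type leaves. VSP2 had an R of 9.83 in the mutant and 39.2 in wild-type leaves, and its mutant R was 28.7 without control replicate 1 and 5.93 without replicate 2. AT2G04570, a GDSL-like lipase gene, had an R of 5.47 in the mutant and 6.92 in wild-type leaves.

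By known role, which was assigned after the members' values were seen, 7 members are cold- and dehydration-induced protein genes, 5 belong to ABA signalling and breakdown, 4 are transcription factor genes, 7 are linked to jasmonate, 10 to the cuticle, the cell wall and lipids, and 12 are others. A keyword count of the RefSeq product names over 11 classes found only the words it searched for. It missed RD26 and PAP1 as transcription factors, HAI2 as a phosphatase and PUB19 in protein turnover. It also missed AT1G51090, named for heavy metal transport, in transport. Loci of the other sets can be missed in the same way. The count gave desiccation proteins as 6 members (13.3%), against 3.76% of the comparison loci and 0.398% of all tested loci. Lipid proteins were 5 members (11.1%), against 5.94% and 2.55%. These 5 include NATA1, matched by its acyltransferase name though known to act on ornithine. Cell wall proteins were 4 (8.89%), against 2.57% and 1.41%. Oxidoreductases were 3 (6.67%), against 6.34% and 4.32%. By this count, the shares of the members were lower than those of the comparison loci in the other 7 classes. These include the classes with the misses named above, so the lower shares describe matched words and not roles. Transport proteins were 2 members (4.44%), against 5.35% of the comparison loci and 2.69% of all tested loci. Transcription regulators were 2 (4.44%), against 5.54% and 5.05% in the same order. Uncharacterised proteins were 4 members (8.89%), against 13.7% and 12.6%. Protein turnover had 1 member (2.22%), against 3.76% and 5.27%, and amino acid metabolism had 1 (2.22%), against 3.17% and 2.28%. No member was matched in the classes of kinases and phosphatases, against 3.37% and 5.55%, or of sugar and glycosyl transfer, against 2.97% and 1.47%. HAI2 is a phosphatase gene all the same.

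**Figure D3:**
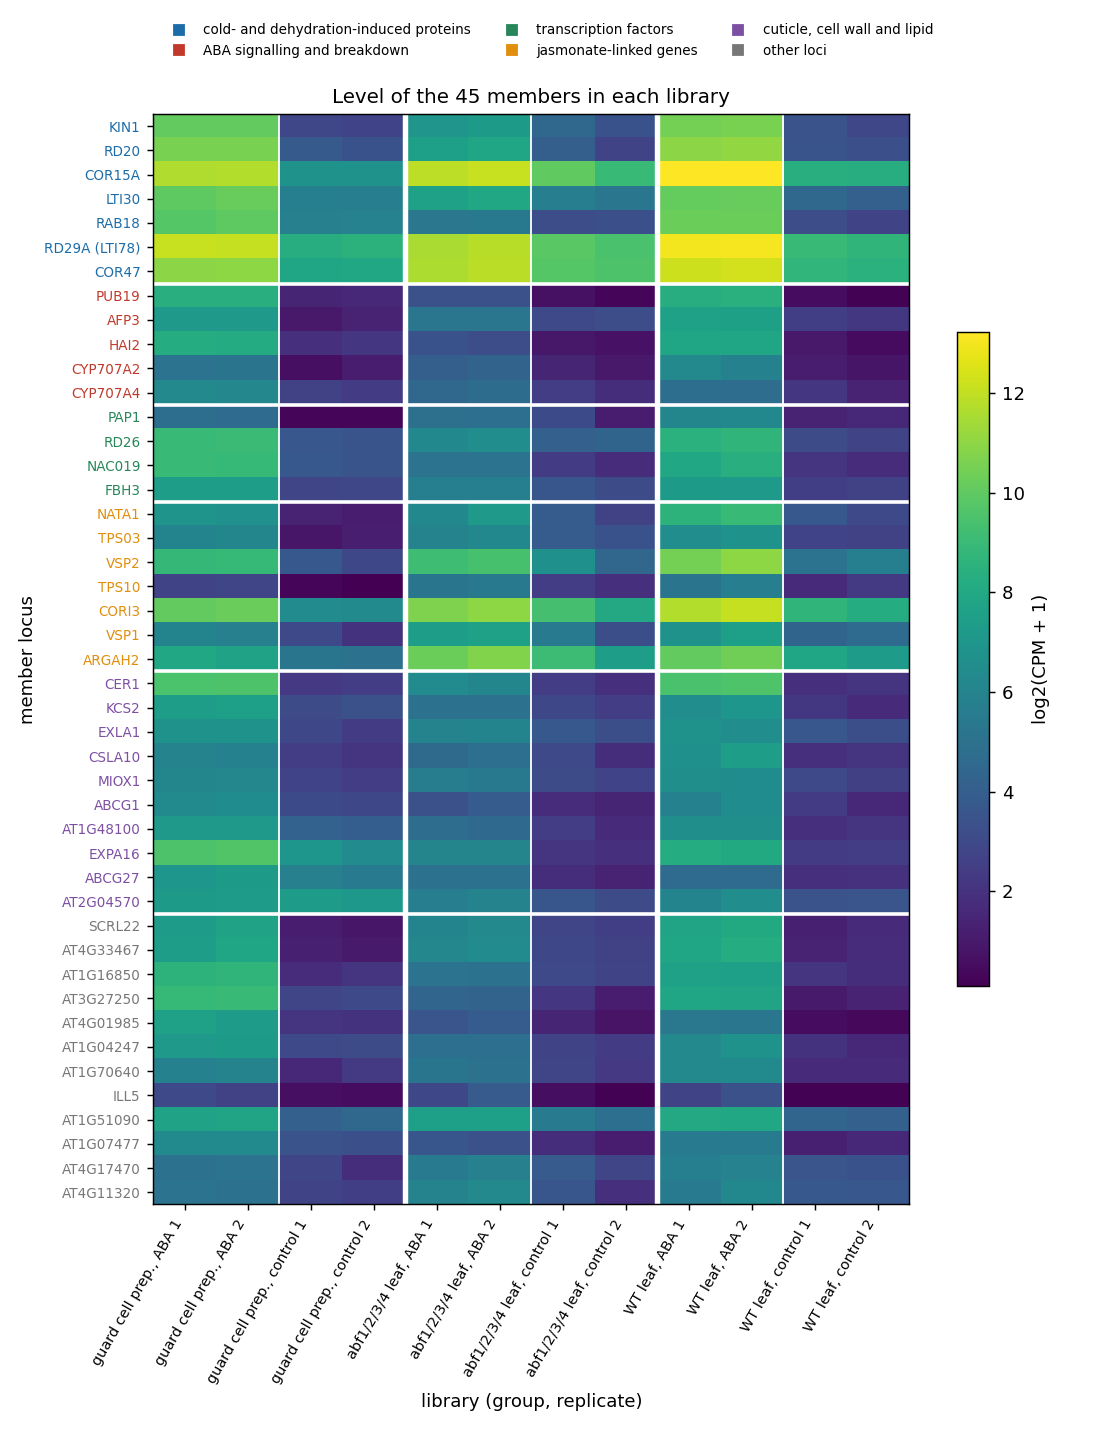
Level of the 45 members in each of the 12 libraries, as log2(CPM + 1) in colour, with members in rows grouped by role and libraries in columns, guard cell preparations at the left, then abf1/2/3/4 leaves, then wild-type (WT) leaves, ABA before control in each. Every member is brighter with ABA than at control in both leaf genotypes, as the rule requires, and AT2G04570 is about as bright in all 4 guard cell libraries.

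The cold- and dehydration-induced proteins are, apart from the caleosin RD20, hydrophilic proteins known to accumulate in stressed cells. Per kilobase of exon they included the members with the highest levels in wild-type leaves with ABA, with COR15A at 5950 CPM per kb, RD29A at 3080 and COR47, a dehydrin gene, at 2130. COR15A had 3804 and 4402 CPM in abf1/2/3/4 leaves with ABA and 1032 and 489.2 CPM at control. In wild-type leaves it had 9291 and 9561 CPM with ABA and 332.6 and 308.8 CPM at control, so the mutant was lower with ABA and higher at control, without overlap.

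RD29A, a hydrophilic protein gene widely used as a drought and cold reporter, had 3062 and 3632 CPM in abf1/2/3/4 leaves with ABA and 919.5 and 691.6 CPM at control. The wild type had 8052 and 8370 CPM with ABA and 495.6 and 412.0 CPM at control. The order of the 4 groups was the same as for COR15A.

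RAB18, a dehydrin gene known for strong induction by ABA, had 38.5 and 41.2 CPM in abf1/2/3/4 leaves with ABA and 8.06 and 8.94 CPM at control, an R of 4.30. In wild-type leaves it had 1241 and 1251 CPM with ABA and 8.30 and 5.80 CPM at control, an R of 155. The level of RAB18 with ABA in the mutant was 0.0328 of that in wild-type leaves on the CPM + 1 scale, although its R passed the limit. With a pseudocount of 2 its R fell short of it.

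KIN1, a small cold-induced protein gene, had 123.2 and 149.6 CPM in abf1/2/3/4 leaves with ABA and 21.9 and 9.59 CPM at control. The wild type had 1434 and 1515 CPM with ABA and 9.80 and 6.48 CPM at control. RD20, a caleosin gene of lipid droplets, had 181.6 and 220.5 CPM in abf1/2/3/4 leaves with ABA and 16.1 and 5.92 CPM at control, and its R of 16.9 was one of the highest in the mutant. LTI30, a dehydrin gene, had an R of 4.81 in the mutant and 56.2 in wild-type leaves, and COR47 had an R of 4.18 and 12.6 in the same order.

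The list of LEA, dehydrin and cold-regulated genes had 19 tested loci, of which 6 are members. R reached 4 in 6 of them in abf1/2/3/4 leaves and in 15 in wild-type leaves, while 18 were called higher in guard cells by the test described below. Relatives of members stood on the other side of the limit. RD29B (LTI65 in RefSeq), named with RD29A for the same desiccation response, averaged 0.607 CPM in abf1/2/3/4 leaves with ABA and 0.359 CPM at control, against 740.8 and 0.298 CPM in wild-type leaves. LEA7 averaged 0.0569 CPM in abf1/2/3/4 leaves with ABA, against 309.1 CPM in wild-type leaves with ABA. ERD10, a dehydrin gene, had an R of 3.60 in the mutant and 17.7 in wild-type leaves, just short of the rule.

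The 5 members in ABA signalling and breakdown are known mainly as negative parts of the pathway. HAI2, a clade A PP2C phosphatase gene, had 9.39 and 8.05 CPM in abf1/2/3/4 leaves with ABA and 0.948 and 0.658 CPM at control. In wild-type leaves it had 223.2 and 231.2 CPM with ABA and 1.01 and 0.396 CPM at control. The groups did not overlap with ABA, and the R was 5.39 in the mutant and 134 in wild-type leaves.

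PUB19, a U-box ubiquitin ligase gene that dampens ABA responses, had 9.24 and 9.18 CPM in abf1/2/3/4 leaves with ABA and 0.620 and 0.271 CPM at control. The wild type had 312.4 and 346.8 CPM with ABA and 0.453 and 0.117 CPM at control. Its mutant R was 0.0274 of its wild-type R, the lowest ratio among the members.

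CYP707A2 and CYP707A4 encode ABA 8′-hydroxylases, which start the breakdown of ABA. CYP707A2 had 15.8 and 18.4 CPM in abf1/2/3/4 leaves with ABA and 1.71 and 1.01 CPM at control, against 77.3 and 56.9 CPM with ABA and 1.198 and 0.815 CPM at control in wild-type leaves. CYP707A4 had 21.7 and 26.03 CPM in abf1/2/3/4 leaves with ABA and 4.63 and 2.48 CPM at control, against 27.8 and 26.6 CPM with ABA and 3.57 and 1.65 CPM at control in wild-type leaves. CYP707A4 was thus nearly level between genotypes with ABA, with the libraries of both within 21.7 to 27.8 CPM. The other hydroxylase genes were not members, with an R of 1.46 for CYP707A1 and 0.656 for CYP707A3 in the mutant, against 14.9 and 4.58 in wild-type leaves.

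AFP3, a gene for a protein of the family that binds the bZIP factor ABI5, had 37.2 and 37.0 CPM in abf1/2/3/4 leaves with ABA and 7.04 and 8.08 CPM at control. It had 190.6 and 186.1 CPM with ABA and 4.82 and 3.66 CPM at control in wild-type leaves. Of 8 tested clade A PP2C genes, R reached 4 in 1 in the mutant and in 6 in wild-type leaves, and all 8 were called higher in guard cells. The count in the mutant depends on the pseudocount of R, since HAI1 also reached 4 with 0.5 in place of 1, and HAI2 fell short with 2. Of 10 tested ABA synthesis and breakdown genes, R reached 4 in 2 in the mutant and in 4 in wild-type leaves, and 8 were called higher in guard cells.

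Among the transcription factor genes, NAC019 and RD26 encode related NAC factors of stress and senescence. NAC019 had 32.9 and 32.7 CPM in abf1/2/3/4 leaves with ABA and 4.41 and 2.398 CPM at control, against 236.3 and 322.8 CPM with ABA and 3.17 and 2.33 CPM at control in wild-type leaves. RD26 had 73.5 and 91.9 CPM in abf1/2/3/4 leaves with ABA and 16.6 and 18.95 CPM at control, against 353.5 and 408.8 CPM with ABA and 7.53 and 5.99 CPM at control in wild-type leaves. Both were lower in the mutant with ABA, and RD26 was also higher there at control. Of 9 listed stress NAC genes, R reached 4 in these 2 in the mutant and in 8 in wild-type leaves, and all 9 were called higher in guard cells.

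FBH3, a basic helix-loop-helix factor gene also known as AKS1, a substrate of ABA-activated kinases in guard cells, had 54.1 and 53.3 CPM in abf1/2/3/4 leaves with ABA and 11.1 and 7.504 CPM at control. It had 151.5 and 146.3 CPM with ABA and 4.82 and 5.26 CPM at control in wild-type leaves. PAP1, a MYB factor gene of anthocyanin synthesis, had 29.4 and 29.1 CPM in abf1/2/3/4 leaves with ABA but 7.26 and 1.16 CPM at control, so its R of 5.81 rested on replicates that differed over 2-fold. Of 9 tested DREB/CBF and other AP2 stress factors, none had an R of 4 in the mutant and 2 had it in wild-type leaves.

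The 7 jasmonate-linked members are genes known to be induced by jasmonate, the hormone of wounding and herbivory. VSP2 had 570.0 and 667.9 CPM in abf1/2/3/4 leaves with ABA, against 1416 and 2035 CPM in ABA-treated and 33.2 and 53.0 CPM in control wild-type leaves. Its mutant control libraries, given above, lay on both sides of the wild-type controls.

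VSP1, which encodes a related storage protein, had 176.7 and 194.0 CPM in abf1/2/3/4 leaves with ABA and 42.5 and 8.55 CPM at control. In wild-type leaves it had 110.8 and 182.5 CPM with ABA and 18.7 and 24.9 CPM at control. The genotypes overlapped under both treatments, with an R of 7.03 in the mutant and 6.47 in wild-type leaves. The mutant R of VSP1 was 19.5 without control replicate 1 and 4.29 without replicate 2, which lie on both sides of the wild-type value.

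ARGAH2 had 1248 and 1711 CPM in abf1/2/3/4 leaves with ABA, against 1063 and 1313 CPM with ABA and 226.4 and 155.7 CPM at control in wild-type leaves. CORI3, a gene for a tyrosine transaminase family protein, had 1644 and 2056 CPM in abf1/2/3/4 leaves with ABA, against 3373 and 4265 CPM in wild-type leaves with ABA. NATA1, which encodes an acetyltransferase acting on ornithine, had 72.8 and 138.8 CPM in abf1/2/3/4 leaves with ABA, against 377.3 and 510.8 CPM in wild-type leaves with ABA. The terpene synthase genes TPS10 and TPS03 had an R of 8.57 and 5.34 in the mutant, against 10.7 and 15.8 in wild-type leaves. In 5 of these 7 members, the abf1/2/3/4 control replicates differed over 2-fold.

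The jasmonate list held 12 tested loci, with R reaching 4 in 2 in the mutant, VSP1 and VSP2, and in 3 in wild-type leaves. LOX2, a lipoxygenase gene of jasmonate synthesis, fell just short in the mutant with an R of 3.71, against 4.66 in wild-type leaves. It averaged 7772 CPM in abf1/2/3/4 leaves with ABA and 2094 CPM at control, against 8479 and 1820 CPM in wild-type leaves. JAZ1, a repressor gene of the jasmonate pathway, had an R of 1.22 in the mutant and 2.61 in wild-type leaves.

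Of the 10 cuticle, cell wall and lipid members, CER1, which makes the alkanes of cuticular wax, had 85.1 and 67.8 CPM in abf1/2/3/4 leaves with ABA and 4.56 and 2.59 CPM at control. It had 703.8 and 781.9 CPM with ABA and 2.64 and 3.26 CPM at control in wild-type leaves. Its R of 16.9 in the mutant stood beside 188 in wild-type leaves. KCS2, a fatty acid elongase gene of wax and suberin, had an R of 4.93 in the mutant and 27.7 in wild-type leaves, and ABCG1, a transporter gene known for suberin, had 4.11 and 17.7 in the same order.

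EXPA16, an expansin gene, had 67.2 and 65.1 CPM in abf1/2/3/4 leaves with ABA and 3.25 and 2.79 CPM at control, against 292.5 and 267.4 CPM with ABA and 4.37 and 4.66 CPM at control in wild-type leaves. EXLA1, an expansin-like gene, had 61.1 and 64.7 CPM in abf1/2/3/4 leaves with ABA and 12.2 and 8.51 CPM at control, against 109.6 and 90.4 CPM with ABA and 11.5 and 8.34 CPM at control in wild-type leaves. EXLA2 was no member, with an R of 2.02 in the mutant. CSLA01, of the same glucomannan synthase family as the member CSLA10, had an R of 12.2 in the mutant and 4.26 in wild-type leaves and was kept out by its level in wild-type leaves.

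ABCG27, an ABC transporter gene, had 31.4 and 32.5 CPM in abf1/2/3/4 leaves with ABA and 2.48 and 1.63 CPM at control, against 24.4 and 24.8 CPM with ABA and 2.74 and 2.94 CPM at control in wild-type leaves. It was the one member whose mutant libraries lay above the wild-type libraries with ABA without overlap. AT2G04570 had 50.9 and 61.1 CPM in abf1/2/3/4 leaves with ABA and 10.98 and 7.89 CPM at control, against 62.6 and 91.0 CPM with ABA and 9.80 and 10.7 CPM at control in wild-type leaves. MIOX1, which encodes an oxygenase that feeds myo-inositol into cell wall sugars, had an R of 5.98 in the mutant and 13.4 in wild-type leaves.

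Among the 12 other members, ILL5 belongs to the auxin-amino acid hydrolase family and AT4G11320 encodes a papain family protease. ILL5 had 6.71 and 13.5 CPM in abf1/2/3/4 leaves with ABA and 0.511 and 0.116 CPM at control, against 5.94 and 9.04 CPM with ABA and 0.133 and 0.140 CPM at control in wild-type leaves. AT4G11320 had 61.8 and 77.6 CPM in abf1/2/3/4 leaves with ABA and 11.3 and 2.71 CPM at control, against 43.5 and 74.4 CPM with ABA and 12.2 and 11.6 CPM at control in wild-type leaves. The genotypes overlapped with ABA in both genes.

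AT3G27250, which RefSeq gives as an uncharacterized protein, had 19.8 and 18.4 CPM in abf1/2/3/4 leaves with ABA and 3.43 and 1.16 CPM at control, against 222.2 and 216.1 CPM with ABA and 1.07 and 1.51 CPM at control in wild-type leaves. Its mutant R was 0.0635 of its wild-type R. In all, 6 loci in 3 pairs overlap in their exons. The pairs are KCS2 with the long non-coding AT1G04247, AT1G48100 with the long non-coding AT1G07477, and SCRL22 with AT4G33467. The count ratio of a pair stayed within 0.821 to 0.915 for KCS2 and AT1G04247 and within 1.09 to 1.24 for SCRL22 and AT4G33467 over the 12 libraries, and ran from 1.54 to 2.45 between AT1G07477 and AT1G48100. Whether counting used strand is not given in the sources used here, so the partners of a pair cannot be told apart and are uncertain, and 39 members remained without them.

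In guard cell preparations, 44 of the 45 members rose with ABA and none fell, in edgeR's quasi-likelihood test over all 22341 tested loci at a Benjamini-Hochberg adjusted p under 0.05. Of all tested loci 29.0% were called higher and 28.5% lower, and of the comparison loci 97.2% were called higher and 0.198% lower. All 45 members had passed the filter on low counts. Both ABA libraries lay above both control libraries in 44 members (24.5% of all tested loci) and below both in none (61.7%) in plain CPM. The median log2 fold change was 4.70 over the members (0.41 to 7.84), 3.04 over the comparison loci and -0.02 over all tested loci. The members also had the larger median R in wild-type leaves, 26.5 against 6.62 over the comparison loci. Each group has 2 replicates, and the p-values rest on a spread estimated from the replicates of all 6 groups, leaves included. Of the loci the rule gave without abf1/2/3/4 control replicate 1, 75 of 76 were called higher, and of those it gave without replicate 2, 34 of 35.

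The preparations held transcripts of several cell types. The sum of 9 guard cell markers was 1386 and 1314 CPM in guard cell preparations with ABA and 2132 and 2010 CPM at control, against 406.4 and 356.2 CPM in wild-type control leaves, and 3 of the 9 were called higher with ABA and 6 lower. The sum of 6 vein markers, 2 of them called higher and 4 lower with ABA, was 4998 and 4867 CPM in the preparations with ABA and 5317 and 5190 CPM at control, against 1063 and 1019 CPM in wild-type control leaves. The sum of 6 mesophyll markers was 25500 and 25320 CPM in the preparations with ABA and 28250 and 28650 CPM at control, against 46430 and 48960 CPM in wild-type control leaves, and 2 of the 6 were called higher with ABA and none lower. The 5 epidermis markers summed to 489.5 and 479.2 CPM with ABA and 772.8 and 703.0 CPM at control, against 348.3 and 331.9 CPM in wild-type control leaves, and 1 was called higher with ABA and 3 lower. In wild-type leaves with ABA, the guard cell markers summed to 790.4 and 947.3 CPM and the vein markers to 799.3 and 807.6 CPM. There the mesophyll markers summed to 36490 and 31480 CPM and the epidermis markers to 471.6 and 493.9 CPM. One guard cell marker, CYP86A2, made up much of its sum with ABA, averaging 913.8 CPM in the preparations and 800.9 CPM in wild-type leaves. These sums are plain CPM, while the calls use TMM factors. No marker was at 0 in any group. In such bulk samples, fewer cells of a type and less RNA per cell cannot be told apart, and the part of cell makeup in the results was not tested.

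SCRL22, named for likeness to the pollen recognition gene SCR, had the largest log2 fold change among the members, 7.84 (SE 0.24, adjusted p = 1.242e-09 with edgeR), and shares its place with AT4G33467. CER1 had 735.1 and 738.5 CPM in guard cell preparations with ABA, against 3.80 and 4.50 CPM at control. That is a log2 fold change of 7.77 (SE 0.22, adjusted p = 7.830e-10 with edgeR), and its level with ABA was 0.992 of that in wild-type leaves on the CPM + 1 scale.

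KIN1 had 1071 and 1091 CPM in guard cell preparations with ABA, against 6.50 and 5.72 CPM at control, a log2 fold change of 7.77 (SE 0.35). PUB19 had 315.2 and 331.7 CPM with ABA, against 1.71 and 1.95 CPM at control, a log2 fold change of 7.76 (SE 0.20). AT1G16850, which RefSeq gives as an uncharacterized protein, had 378.2 and 410.2 CPM with ABA, against 2.43 and 3.21 CPM at control. All of these rose without overlap between the treatments, with adjusted p-values in edgeR of 1.667e-08 for KIN1, 4.039e-10 for PUB19 and 8.744e-11 for AT1G16850.

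All 5 members of ABA signalling and breakdown and all 4 transcription factor genes rose in guard cell preparations. HAI2 had 298.8 and 284.9 CPM with ABA, against 2.62 and 3.57 CPM at control, and AFP3 had 144.6 and 142.7 CPM with ABA, against 0.988 and 1.65 CPM at control. Their log2 fold changes were 6.85 (SE 0.20) and 7.04 (SE 0.17). CYP707A4 had 75.2 and 70.3 CPM with ABA, against 5.43 and 4.33 CPM at control, and CYP707A2 had 33.2 and 34.9 CPM with ABA, against 0.570 and 1.16 CPM at control. RD26 had 502.3 and 526.5 CPM with ABA, against 11.6 and 10.45 CPM at control, a log2 fold change of 5.85 (SE 0.15).

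**Figure D4:**
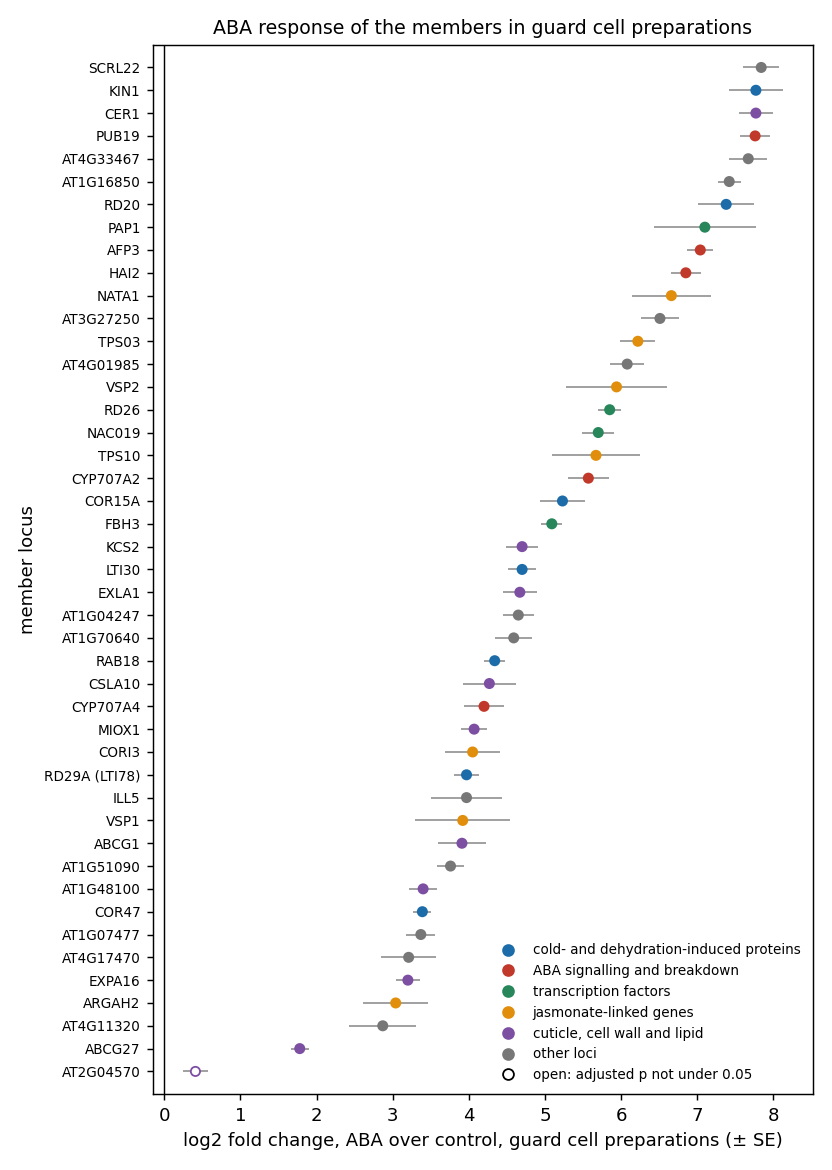
Log2 fold change of each member in guard cell preparations, ABA over control, with its standard error as a bar, from edgeR's fit over 12 libraries, coloured by role. The values run from 0.41 to 7.84, and AT2G04570, drawn open, is the one member not called at an adjusted p under 0.05.

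The exception was AT2G04570, whose guard cell control level was already above its leaf level with ABA. It had 151.1 and 164.1 CPM in guard cell preparations with ABA and 157.6 and 136.0 CPM at control, so the treatments overlapped in plain CPM. Scaled with the TMM factors that the test uses, the levels of AT2G04570 were 150 and 163.5 CPM with ABA, against 127.1 and 109.7 CPM at control, without overlap, as in all 45 members (40.0% of all tested loci). Its log2 fold change was 0.41 (SE 0.16, adjusted p = 0.0536 with edgeR), and its R, from plain CPM, was 1.07. It was called with DESeq2 (adjusted p = 0.0432), without the filter on low counts (0.0175) and with only the guard cell libraries in edgeR's fit (0.00126), and its adjusted p ran from 0.00126 to 0.611 over all alternatives. Its guard cell control level was 13.1 times that of wild-type control leaves on the CPM + 1 scale.

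ABCG27 and EXPA16 also started high in guard cell preparations. ABCG27 had 126.8 and 150.9 CPM with ABA, against 54.9 and 45.2 CPM at control, a log2 fold change of 1.78 (SE 0.12) and an R of 2.74. EXPA16 had 742.3 and 818.4 CPM with ABA, against 124.5 and 84.6 CPM at control, a log2 fold change of 3.20 (SE 0.16). Their control levels were 13.3 and 19.2 times those of wild-type control leaves. RAB18 was also higher at control in guard cell preparations than in leaves, with 865.5 and 1009 CPM with ABA, against 54.8 and 59.2 CPM at control, a level 7.20 times that of wild-type control leaves.

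Measured by the rule's own fold, 43 of the 45 members had an R of at least 4 in guard cell preparations, the exceptions being AT2G04570 and ABCG27. The share was 69.7% of the comparison loci and 3.23% of the 15209 loci that averaged 5 CPM with ABA in guard cells. The median R over the members was 18.1 (1.07 to 152), and 5.41 over the comparison loci. In wild-type leaves the medians already differed, at 26.5 and 6.62 in the same order, so the 2 sets are not matched in their wild-type response. Over the 45 members, log2 R in guard cell preparations went with log2 R in wild-type leaves (Pearson r = 0.823, Spearman rho = 0.828) more closely than with log2 R in abf1/2/3/4 leaves (r = 0.272, rho = 0.233). These correlations are descriptions over members that share libraries and were all chosen above a fold of 4 in leaves. They also span unequal ranges, since R ran from 4.66 to 257 in wild-type leaves and from 4.03 to 16.9 in the mutant. The part of this range, and of the mutant control replicates, in the lower correlation was not tested. R was larger in guard cell preparations than in wild-type leaves in 16 members and in 177 of the 505 comparison loci.

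All 7 jasmonate-linked members rose in guard cell preparations. VSP2 had 462.2 and 477.0 CPM with ABA, against 12.3 and 6.71 CPM at control, a log2 fold change of 5.94 (SE 0.66, adjusted p = 1.862e-05 with edgeR). ARGAH2 had 245.0 and 203.3 CPM with ABA, against 36.2 and 30.9 CPM at control, a log2 fold change of 3.04 (SE 0.43, adjusted p = 1.155e-04 with edgeR). TPS10 had 5.89 and 6.17 CPM with ABA, against 0.228 and 0.0661 CPM at control. Their control levels were 0.180 to 0.319 of those in wild-type leaves on the CPM + 1 scale, and their levels with ABA were 0.162 to 0.652 of those in wild-type leaves. All 7 were lower in the preparations than in wild-type leaves under both treatments by these ratios.

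Levels in guard cell preparations and wild-type leaves otherwise differed in both directions. At control, both guard cell libraries lay above both wild-type leaf libraries in 20 members (62.0% of all tested loci) and below both in 17 (23.9%). With ABA they lay above in 15 (53.7%) and below in 24 (29.8%). These counts use plain CPM and all ratios of preparations to leaves use mean CPM + 1, both without TMM factors. TMM factors were 1.2402 and 1.2396 in the control preparations, against 0.9585 and 0.9414 in wild-type control leaves. With ABA they were 1.0070 and 1.0032, against 0.8562 and 0.8729. Dividing by these factors would lower the preparations relative to the leaves. All 7 cold- and dehydration-induced members had lower mean levels with ABA in the preparations, at 0.350 to 0.955 of the wild-type leaf level, and COR15A, with 3261 and 3333 CPM, stood lowest in that ratio. AT4G01985, which RefSeq gives as an uncharacterized protein, had 194.9 and 155.1 CPM in the preparations with ABA, against 39.8 and 36.9 CPM in wild-type leaves with ABA. The materials differ in isolation and RNA kit as well as in cells, which cannot be told apart here.

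The other pathway lists gave mixed counts in guard cell preparations. Of 16 tested wax and lipid transfer genes, 15 were called higher and 1, LTP5, lower, while R reached 4 in 2 in the mutant and in 6 in wild-type leaves. Of 17 expansin and cell wall genes, 6 were called higher and 8 lower. EXPA16, EXLA1 and CSLA01 had an R of at least 4 in the mutant, and EXPA1, an expansin gene, fell with a log2 fold change of -2.09 in guard cell preparations. Of 9 ABA receptor genes, 1 was called higher and 7 lower, and PYL4 averaged 1.46 CPM with ABA and 149.4 CPM at control. No receptor gene had an R of 4 in any material.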

How the data were processed

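Messenger RNA was sequenced from TruSeq V2 libraries, per the labels' protocols. The authors deposited raw counts of reads for each locus, as whole numbers without normalization. The submitters' processing notes name TAIR10, Trim Galore 0.6.5, cutadapt, FastQC, SAMtools, featureCounts and DESeq2 1.26.0; the aligner and the strand setting are not given in the sources used here. Of 36796 loci, 36632 matched RefSeq TAIR10.1 and 22341 passed edgeR's filterByExpr (minimum of 10 counts). The 164 organelle loci are at 0 in every library.

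One fit in R 4.3.3 with edgeR 4.0.16 (glmQLFit and glmQLFTest, TMM factors, 6 group means, no replicate term, 12 libraries) gave the two-sided guard cell test, adjusted by the Benjamini-Hochberg method over all tested loci. CPM used plain column sums. R used a pseudocount of 1 and understates the change of low loci. DESeq2 1.42.0 was an alternative. The code was tested on simulated data. The biological coefficient of variation was 8.98%.

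Members, roles and 23 gene lists were chosen with earlier results of these data known. Genes were named by level, by both leaf folds, by guard cell fold change, by the ratio of the mutant to the wild-type R, by list membership and by nearness to a threshold. AT2G04570, AT4G01985, AT3G27250, MIOX1, FBH3, AFP3, PAP1, TPS10 and TPS03 were named after their values were seen. So were the members named for differences between replicates and for overlap with another locus. The same holds for LTP5, PYL4, EXPA1, RD29B, LEA7, ERD10, LOX2, JAZ1, EXLA2 and the hydroxylase genes that are not members.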

Additional observations from a re-analysis of the deposited data

How the results depend on the processing

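The count of members called higher in guard cells was 44 or 45 under every alternative fit of all loci, 44 when each guard cell library was left out in turn, and 38 of 39 without the overlapping loci (added after seeing the data); none was called lower in any, and DESeq2 called 45 higher and 0 lower. Leaving out an abf1/2/3/4 control library moved the number of members between 35 and 76 and the members called higher between 34 and 75, also chosen after seeing the data. Other changes to the rule gave 41 to 59 members: 54 with TMM-scaled totals, 59 with a pseudocount of 0.5 and 41 with 2. The median log2 fold change of the members was 4.39 with total-count scaling and 4.58 with upper quartile scaling, which moved the median of all loci by -0.30 and -0.11, and 4.67 to 4.83 with a guard cell library left out. Over all loci, 3881 were called higher and 10860 lower with total-count scaling, 5260 and 7929 with upper quartile scaling, and 2561 and 2217 where calls also needed an absolute log2 fold change of 1, against 6483 and 6362. Members with an R of 4 in guard cells numbered 41 to 43. The replicate numbers did not pair the samples, with a correlation of 0.042 between the deviations of the guard cell groups; with the replicate block 44 members, and 6484 loci higher and 6389 lower, were called. Leaf values rest on 2 libraries a group, and the cause of these shifts was not tested.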
